A study of Mus musculus with 63 samples.

Results

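Mouse intestinal organoids that lacked both CDK8 and CDK19 in the epithelium were compared with organoids that lacked CDK8 alone, so the comparison addresses the loss of CDK19 where CDK8 is already absent. The comparison was set by the labels of the samples, and its members are 6 of the 63 samples of the series, 3 per group. CDK8iIEC-KO organoids (VillinCreERT2; Cdk8 fl/fl) kept Cdk19. CDK8iIEC-KO/Cdk19-/- organoids, the double knockout, carry the same floxed Cdk8 and the same Cre and have the genotype label Cdk19 ko/ko. Both groups received 100 nM 4-hydroxytamoxifen (4-OHT), which activates the Cre, for 24 h and were collected at day 7. The Villin promoter restricts the Cre to epithelium, and the strain label of both groups is C57BL/6. The columns of each group carry a single line number, so the groups differ in line as well as in Cdk19. Nothing states that the 3 libraries of a group came from separate mice or derivations, so p-values measure the spread between these libraries, which may be technical. The same table holds organoids of VillinCreERT2, C57BL/6 and Cdk8 fl/fl/Cdk19-/- at the same day and with the same 4-OHT, which serve below only as points of reference.

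CDK8 and CDK19 are paralogous kinases of the Mediator kinase module, a dissociable part of the Mediator complex that links transcription factors to RNA polymerase II. Either kinase binds cyclin C together with MED12 and MED13, and both occupy the same place in the module. The organoids were grown with EGF, Noggin and R-spondin, form from crypts and hold the lineages of the small intestinal epithelium. Stem cells at the crypt base receive Wnt and Notch signals from Paneth cells, ATOH1 starts the secretory programme (Paneth, goblet, tuft and enteroendocrine cells), and most progeny become absorptive enterocytes. In bulk RNA, fewer cells of a type and less RNA per cell of that type cannot be told apart.

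Total counts per library lay between 17833336 and 18440256 in the double knockout and between 21133160 and 21449826 in CDK8iIEC-KO organoids, and no library stood apart from its group in depth. The column names came in one of a pair of styles, one shared by the double knockout, Cdk8 fl/fl/Cdk19-/- and C57BL/6 and the other by CDK8iIEC-KO and VillinCreERT2, and no label says what the styles stand for. Mitochondrially encoded RNA took 5.96% to 6.23% of the counts in the double knockout and 3.93% to 4.56% in CDK8iIEC-KO organoids. The 50 most abundant genes took 16.7% to 17.2% against 14.0% to 14.8%. The style, the line and the Cdk19 genotype cannot be told apart within the comparison. The difference of C57BL/6 from VillinCreERT2 organoids crosses the same styles in libraries that the comparison does not use, so it is given beside the results as the control-line difference. It also separates organoids without a labelled Cre from organoids with an activated one, whereas both groups of the comparison carry it. In that difference 26.4% of the genes passed the cutoffs used below.

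Neither targeted gene was near 0 in either group. Cdk19 (chr10:40339564-40483818, GRCm38) had 27.8, 27.8 and 27.6 CPM (counts relative to the TMM-scaled library total) in the double knockout and 29.5, 28.4 and 29.2 CPM in CDK8iIEC-KO organoids. The double knockout was lower in every library, but the log2 fold change of -0.07 ± 0.07 (SE) did not pass (edgeR adjusted p = 0.445). Cdk8 (chr5:146231230-146302874), which both groups delete, had 66.6, 65.1 and 67.2 CPM against 80.7, 83.1 and 78.0 CPM, a log2 difference of -0.28 that was under the fold cutoff, and the control-line difference was -0.41. Counts over a whole gene include exons outside a deleted part, so neither gene checks the genotype here. No gene of a short list of sex-linked genes passed (0 of 5). Of the genes tested within 10 Mb of Cdk19, 13 of 71 (18.3%) passed, close to the 20.4% of all genes that did.

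**Figure D1:**
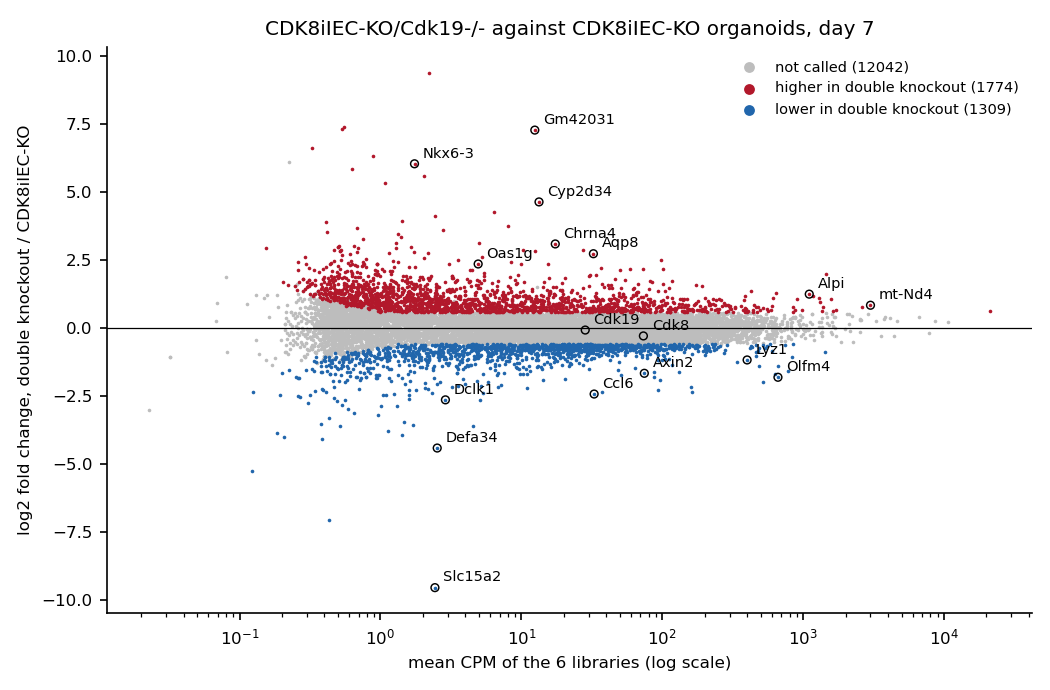
Log2 fold change of the double knockout over CDK8iIEC-KO organoids (vertical axis) against mean CPM of the 6 libraries (horizontal log axis), 1 point per gene tested, with DEGs coloured by direction and selected genes circled. Fitted values such as that of Slc15a2, with 0 counts in one group, rest on a prior count. DEGs lie on both sides over the whole range of abundance, with 1774 higher and 1309 lower in the double knockout.

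Among 15125 genes tested with edgeR's quasi-likelihood test, 3083 (20.4%) were differentially expressed genes (DEGs), with a fold change of more than 1.5 and an adjusted p (Benjamini-Hochberg) below 0.05. Of these, 1774 (11.7% of all tested) were higher and 1309 (8.65%) were lower in the double knockout, as the plot of fold change against abundance shows. Values given below with a sign are log2 fold changes of the double knockout over CDK8iIEC-KO organoids from this fit, with their SE where shown, unless another contrast is named. The spread within groups was small: in 9263 genes (61.2%) the 3 libraries of one group did not overlap with those of the other, and 8280 genes passed on adjusted p alone. Of 12288 protein-coding genes 1153 were higher and 1031 lower (17.8%), while 27.6% of pseudogenes and 14 of 17 mitochondrial RNAs passed. Of the DEGs higher in the double knockout, 703 (39.6%) were also called higher in C57BL/6 than in VillinCreERT2 organoids and 256 (14.4%) were called lower. Of the DEGs lower in the double knockout, 304 (23.2%) were also called lower in the control-line difference and 150 (11.5%) were called higher. Without the DEGs called in the same direction there, 1071 higher and 1005 lower DEGs were left, and with the control-line difference subtracted in the fit 1920 were higher and 2181 lower.

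The largest falls were of a transporter, of Paneth and tuft cell genes and of a P450. Slc15a2, a proton-coupled peptide transporter, had 0 counts in each double-knockout library and 4.75, 5.31 and 4.55 CPM in CDK8iIEC-KO organoids, at least 29.2-fold lower against a floor of 3 counts per library. It averaged 1.85 ± 0.276 CPM (SD, n = 3) in Cdk8 fl/fl/Cdk19-/-, 12.4 ± 2.07 CPM in C57BL/6 and 9.23 ± 0.631 CPM in VillinCreERT2 organoids, so the double knockout was the only one of the 5 groups without a count. Defa34, an alpha-defensin, had 0.221, 0.113 and 0.332 CPM against 5.65, 4.90 and 3.95 CPM (log2 fold change -4.40 ± 0.40). Pla2g2a, the secreted phospholipase of Paneth cells, had 0.276, 0.395 and 0.111 CPM against 3.26, 2.70 and 3.44 CPM (-3.56 ± 0.30). The groups did not overlap in any of these, and the control-line difference was -0.42 for Defa34 and 2.08 for Pla2g2a. Cyp1a1, the P450 induced through the aryl hydrocarbon receptor, had 0.386, 0.621 and 1.05 CPM against 8.95, 8.24 and 7.85 CPM (-3.59), with a control-line difference of the same direction and larger size (-4.20). The other 8 of the 12 largest falls were the tuft cell genes Dclk1, Pou2f3 and Spib and the Paneth list member Ccl6, described below, and Gm10175 (-3.94), Gm10800 (-3.44), Mrto4-ps1 (-2.84) and Gm8210 (-2.62). For Gm10175, Gm10800 and Mrto4-ps1 the control-line differences were -3.81, -2.43 and -2.43. Gm10175 averaged 3 counts in the double knockout and fewer in C57BL/6 organoids, so both of its values depend on the prior count. Predicted genes and pseudogenes of this kind can share reads with near-identical copies, so their counts are uncertain.

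The largest rises were less of one kind. Cyp2d34, a cytochrome P450 with close paralogs, had 34.2, 22.2 and 20.6 CPM against 1.36, 0.961 and 0.743 CPM (4.64 ± 0.21, control-line difference 1.29). Nkx6-3, a homeobox transcription factor, had 2.21, 1.75 and 6.37 CPM against 0.0452, 0 and 0.0929 CPM, with 1 double-knockout library far above the others. Cfap61, a gene of cilia and flagella, had 20.8, 10.6 and 13.8 CPM against 1.18, 1.28 and 0.882 CPM (3.75) with a control-line difference of 0.04. Sp100, a component of PML nuclear bodies that interferon induces, had 3.97, 6.83 and 4.54 CPM against 0.362, 0.320 and 0.557 CPM (3.61), and it stayed under 10 counts in every library of both control lines. Btnl7-ps, a butyrophilin-like pseudogene, rose by 3.13 (control lines -0.07). The nicotinic receptor subunit gene Chrna4 rose by 3.10 and Gm5853 by 4.11, but their control-line differences of 4.53 and 4.11 were as large or larger, the first against fewer than 3 counts on average in VillinCreERT2 organoids. Gm42031 averaged 24.8 ± 4.14 CPM against 0.153 ± 0.0722 CPM, yet it averaged 286 ± 3.96 CPM in C57BL/6 organoids. Further large rises were those of Gm16332, with 4.47, 2.71 and 4.76 CPM against 0.0452, 0.0916 and 0.0929 CPM, the phosphodiesterase gene Pde10a (2.97) and mt-Nd3 (4.27).

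Paneth cell genes were lower in the double knockout. Of 13 Paneth cell genes tested, 9 fell and 1 rose, with a median log2 fold change of -1.26 against 0.0016 over all genes, and the summed level of the list was 726.4 to 750.3 CPM against 1754 to 1843 CPM. Lyz1, the Paneth cell lysozyme, had 249, 234 and 256 CPM in the double knockout and 562, 539 and 559 CPM in CDK8iIEC-KO organoids, with no overlap. Its log2 fold change was -1.17 ± 0.06 (edgeR adjusted p = 2.83e-14), and its control-line difference was 2.00. Ang4, an angiogenin with antimicrobial activity, had 26.5, 21.3 and 23.1 CPM against 78.1, 73.4 and 83 CPM (-1.72 ± 0.09). Mmp7, the protease that activates pro-defensins, had 31.4, 30.2 and 25.7 CPM against 67.7, 64.5 and 76.7 CPM (-1.26 ± 0.08). The chemokine Ccl6 fell from 54.0, 53 and 58.9 CPM to 11.0, 10.2 and 9.86 CPM (-2.42, control lines -1.38), and the pentraxin genes Mptx1 (-2.23) and Mptx2 (-1.85) fell. The member that rose was Pnliprp2, a pancreatic lipase-related gene, with 97.5, 109.6 and 78.8 CPM against 34.9, 33.6 and 44.6 CPM, and it was called higher in the same direction between the control lines (1.33). Over the list the control-line median was 0.97, opposite in sign to the comparison, and 8 falls and no rise were left after the genes called in the same direction there were dropped.

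The alpha-defensins, the bactericidal peptides of Paneth granules, fell nearly as a family. Of 17 tested members, 16 fell and 0 rose, with a median of -2.08, and their summed level was 329.7 to 377.3 CPM against 1097 to 1266 CPM. Defa5 had 2.04, 1.19 and 1.94 CPM against 10.4, 8.47 and 8.03 CPM (-2.38 ± 0.23), Defa2 0.497, 0.564 and 0.554 CPM against 2.49, 3.11 and 2.32 CPM, and AY761184, another defensin gene, 14.0, 12 and 10.9 CPM against 61.5, 60.0 and 64.3 CPM. In the control lines the family median was 1.67 and no member was called lower, so none of the 16 falls shared its direction there. Alpha-defensin genes are near-identical copies, and reads may have been split among them, so values of single members are uncertain.

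**Figure D2:**
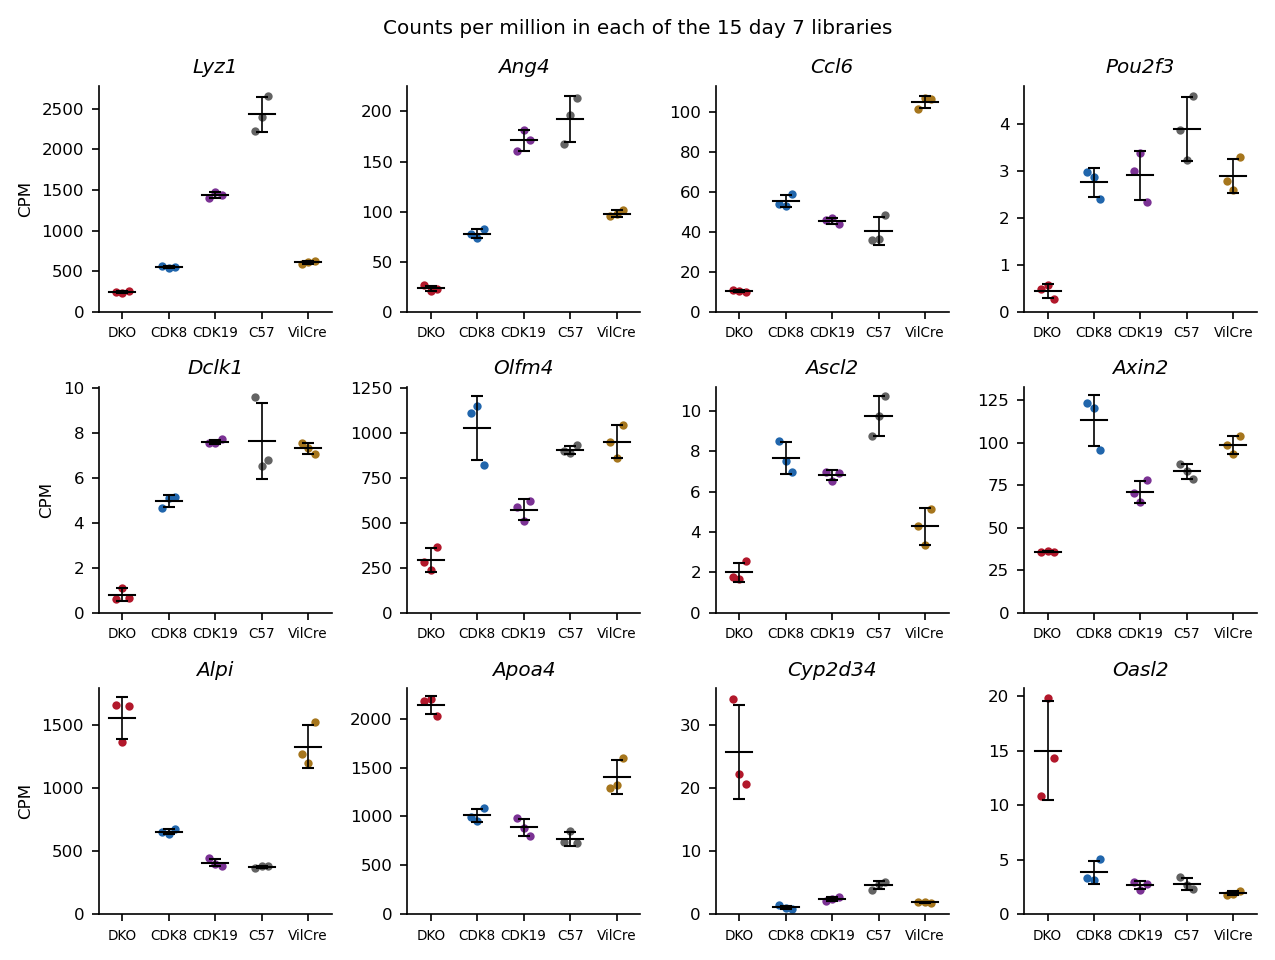
CPM (vertical axis) in each of the 15 libraries for 12 genes, 1 point per library, with the mean as a bar and the SD as whiskers. The groups along the horizontal axis are the double knockout (DKO), CDK8iIEC-KO (CDK8), Cdk8 fl/fl/Cdk19-/- (CDK19), C57BL/6 (C57) and VillinCreERT2 (VilCre) organoids. The double knockout lies below the other 4 groups in the first 8 panels, and the mean of Alpi in the VillinCreERT2 control lies between those of the double knockout and CDK8iIEC-KO organoids.

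After the alpha-defensins, tuft cell genes had the lowest median of the lists described here. Of 15 tested, 12 fell and 1 rose (median -1.81), although the summed level moved less, from 46.01 to 48.84 CPM down to 32.83 to 34.49 CPM. Pou2f3, the transcription factor that tuft cells require, had 0.497, 0.564 and 0.277 CPM against 2.98, 2.88 and 2.41 CPM (-2.62 ± 0.27, edgeR adjusted p = 1.17e-08). Dclk1, the kinase used as their marker, had 0.607, 1.13 and 0.664 CPM against 4.66, 5.13 and 5.15 CPM (-2.63), and Spib 0.386, 0.677 and 0.388 CPM against 2.94, 2.79 and 2.32 CPM (-2.46). The taste-transduction channel gene Trpm5 had 0.828, 0.847 and 0.775 CPM against 3.30, 3.48 and 3.20 CPM (-2.02). All 4 were low in absolute terms, at under 6 CPM in every library, and separated without overlap. Their control-line differences lay between 0.06 for Dclk1 and 0.81 for Trpm5. Hpgds, a prostaglandin D synthase, was the member that rose (0.83).

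Transcription factors that specify secretory cells were lower as well. Of 15 tested, 10 fell and 0 rose, with a median of -0.68 and a control-line median of 0.24, and none of the 10 was called in the same direction between the control lines. Atoh1, which starts the programme, had 11.8, 12.2 and 11.8 CPM against 19.6, 20.2 and 18.5 CPM (-0.70 ± 0.10, edgeR adjusted p = 8.23e-07). Tested against the fold cutoff itself, 3 of the 15 fell, and Atoh1 was not among them. Bhlha15, the factor of granule maturation also called MIST1, had 4.97, 5.08 and 4.76 CPM against 13.8, 12.9 and 13.5 CPM (-1.44). Sox4 (-1.17) and Foxa3 (-0.94) fell without overlap too. Of 16 enteroendocrine transcription factors, 7 fell and 0 rose (median -0.54, and 11 falls with the control-line difference subtracted), among them Neurog3, which commits cells to that lineage, with 2.37, 2.20 and 1.99 CPM against 5.43, 4.49 and 4.46 CPM, Insm1 (-1.04) and Nkx2-2 (-0.95). The summed level of that list was higher in the double knockout, 511.4 to 616 CPM against 397.9 to 449.7 CPM, most of it from Mlxipl, a glucose-responsive factor that was under the fold cutoff (0.57). The enteroendocrine hormones were less uniform, with 5 of 18 lower and 0 higher, and only 2 of these falls were left without those called in the same direction between the control lines. With the control-line difference subtracted, 7 hormones and granins were higher and 6 lower. Gip (-0.86) and Chga (-0.65) fell against a positive control-line difference, whereas Ghrl (-2.12) and Gcg (-0.79) had control-line differences of -2.40 and -2.30. Goblet cell genes were mixed, with 5 of 17 lower and 1 higher (median -0.36): Spink4 had 179, 203 and 154 CPM against 305, 291 and 318 CPM (control lines -0.51) and Ccl9 (-1.11) and Guca2a (-0.75, control lines -1.44) fell too, while Spink1 rose by 0.90. The control-line median of the goblet list was -0.40, and 3 falls were left without the genes called in the same direction there. With that difference subtracted 5 goblet cell genes were higher, Guca2a among them, and 3 lower.

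Crypt base stem cell genes fell in the main, and Lgr5 was an exception. Of 20 tested, 13 fell and 1 rose, with a median of -0.66, and all 13 falls were without a control-line call in the same direction. Olfm4, an abundant secreted marker of these cells, had 284, 237 and 365 CPM against 1114, 1150 and 824 CPM (-1.80 ± 0.17, edgeR adjusted p = 2.49e-06). Ascl2, the Wnt-dependent transcription factor of the stem cell state, had 1.77, 1.69 and 2.55 CPM against 8.5, 7.51 and 6.96 CPM (-1.93 ± 0.17). Msi1, an RNA-binding protein of progenitors, had 5.85, 4.29 and 5.65 CPM against 18.1, 18.9 and 13.3 CPM (-1.67 ± 0.16). In none of these did the groups overlap, and the control-line differences were -0.07, 1.19 and -0.54. Lgr5, the R-spondin receptor that marks the same cells, had 23.4, 22 and 26.3 CPM against 26.4, 29.2 and 23 CPM, which overlapped, and its log2 fold change of -0.13 ± 0.10 did not pass (edgeR adjusted p = 0.26). Its control-line difference was 1.06, and with that subtracted Lgr5 was called lower (-1.20, edgeR adjusted p = 8.72e-08). That call rests on C57BL/6 organoids, which averaged 58.1 CPM, against 27.8 CPM in VillinCreERT2 and 29.5 CPM in Cdk8 fl/fl/Cdk19-/- organoids. Gkn3 was the member that rose (0.86), with a control-line difference of 1.72.

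Wnt ligands and targets, which share Ascl2 and Axin2 with the stem cell list, had 13 of 24 lower and 0 higher (median -0.66). Wnt3, the ligand that Paneth cells supply to the crypt base, had 1.71, 2.20 and 2.16 CPM against 4.30, 4.39 and 4.18 CPM (-1.08 ± 0.17). Axin2, a feedback target of beta-catenin, had 36, 36.1 and 35.8 CPM against 123, 120.5 and 96.0 CPM (-1.66 ± 0.08, edgeR adjusted p = 1.12e-13), with a control-line difference of -0.25. Tcf7, a nuclear partner of beta-catenin and itself a target, had 4.53, 4.23 and 5.32 CPM against 10.5, 10.8 and 11.3 CPM. The secreted antagonist Sfrp5 (-1.98) fell too, a gene with at most 1 count in each C57BL/6 library. Of the Notch pathway, 5 of 17 fell and 0 rose, among them the ligand gene Dll4 (-0.98), the receptor gene Notch1 (-0.78, control lines -0.54) and Lfng, which modifies Notch receptors (-1.46). With the control-line difference subtracted 3 of the Notch pathway fell, and Notch1 did not pass. Of 22 EGF family and MAPK feedback genes, 4 fell and 0 rose, and with the control-line difference subtracted 3 fell and 5 rose. The ligand gene Areg had 20.3, 22.8 and 19.8 CPM against 41.1, 44.2 and 49.6 CPM (control lines -0.58), and Ereg (-1.36) fell too, a gene with 0 counts in the 3 C57BL/6 libraries.

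**Figure D3:**
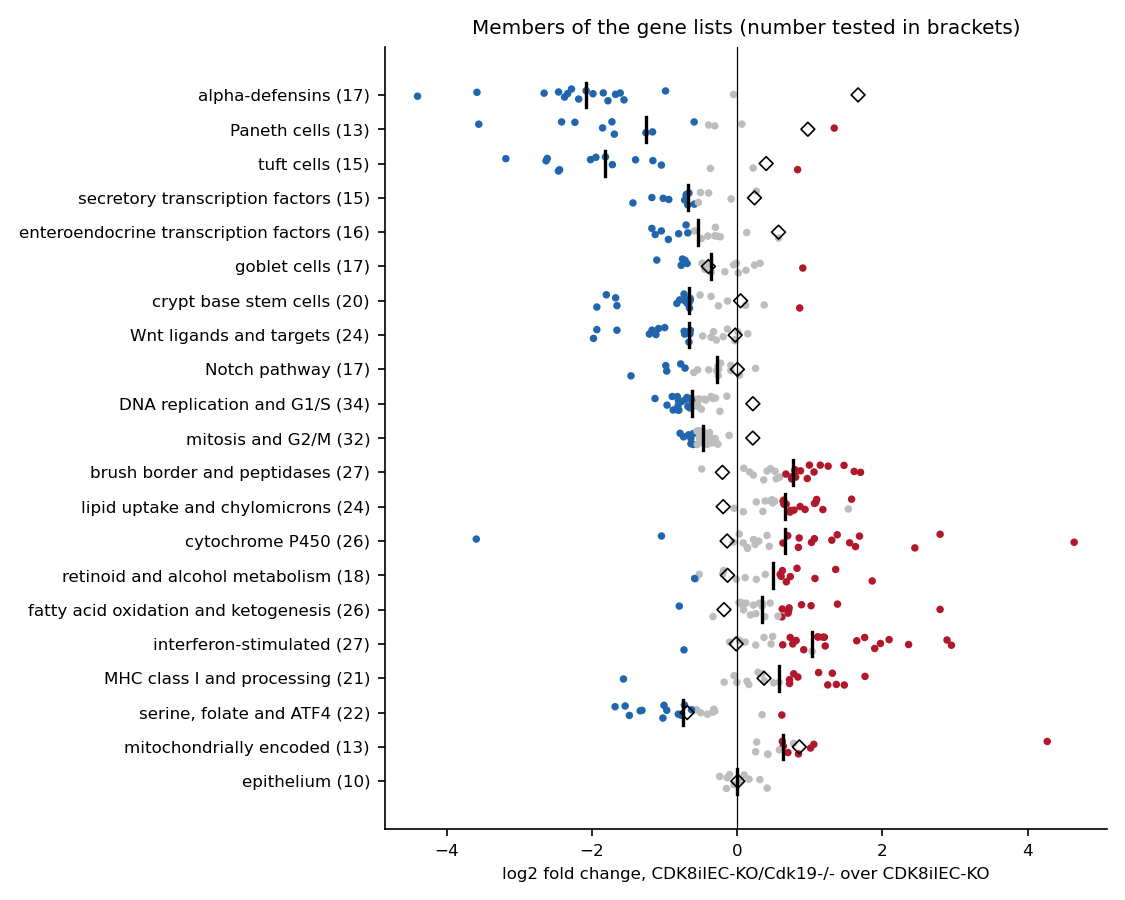
Log2 fold change of the double knockout over CDK8iIEC-KO organoids (horizontal axis) for the tested members of 21 lists (vertical axis, number tested in brackets), 1 point per gene, red for DEGs higher, blue for DEGs lower and grey for the rest. Black bars are list medians and open diamonds the medians of C57BL/6 over VillinCreERT2. Medians run from -2.08 in alpha-defensins to 1.03 in interferon-stimulated genes, and bar and diamond lie close together in the goblet, ATF4 and epithelium lists.

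Genes of DNA replication were lower together and by a modest amount. Of 34 G1/S genes tested, 19 fell and 0 rose, with a median of -0.62 and a range from -1.13 to -0.14, and in all 34 the double-knockout libraries lay below those of CDK8iIEC-KO organoids, against 61.2% of all genes without overlap in either direction. The summed level was 1427 to 1612 CPM against 2190 to 2322 CPM. Orc1, a subunit of the origin recognition complex, had 4.36, 4.06 and 5.32 CPM against 10.5, 9.93 and 9.66 CPM (-1.13 ± 0.12), and Uhrf1, which couples replication to DNA methylation, had 47.6, 56.6 and 54.2 CPM against 104, 104 and 101 CPM (-0.97). Cdt1 (-0.88), which licenses origins, and Dtl (-0.89), which targets CDT1 for degradation, fell too. Of 32 mitosis genes, 7 fell and 0 rose (median -0.47, range -0.79 to -0.11), and 31 were lower without overlap, so the changes of most of the list were under the fold cutoff. The count of mitosis genes that fell was 1 when tested against the fold cutoff itself and 24 with the control-line difference subtracted, and that of G1/S genes 10 and 26. Ect2, a regulator of cytokinesis, had 48.6, 54.2 and 60.5 CPM against 93.8, 98.5 and 89.3 CPM (control lines -0.34), and the ubiquitin-conjugating enzyme gene Ube2c (-0.74), the kinesin gene Kif20a (-0.67) and Foxm1 (-0.64, control lines -0.07), the transcription factor of the G2/M programme, fell too. The control-line medians were 0.22 for both lists. Over Cdk8 fl/fl/Cdk19-/- organoids, in the same fit, the double knockout had 1 of the 34 G1/S genes lower and 0 higher. In that contrast 0 of the 32 mitosis genes passed, against 645 of 15125 genes called lower over all. The list of G1/S genes is known for E2F sites, so their promoters (250 bases before to 50 after the first start listed in RefSeq, GRCm38.p6) were searched on both strands for the letters TTTCCCGC or TTTGGCGC. These stood in 9 of 28 promoters found (32.1%), in 8 of 16 genes that fell and in 1 of 12 others, against 1.63% of 27025 promoters and 3.07% of those of 10285 tested genes. The 12 others were lower without overlap as well, so they differ from the 16 only in not passing the cutoffs. The 150 bases before the start are shown for 3 of the genes that fell, chosen by the largest fall among those that averaged at least 50 counts in a group and whose matches lie there, with the match in capitals.
Dtl, chr1:191575545-191575694, minus strand: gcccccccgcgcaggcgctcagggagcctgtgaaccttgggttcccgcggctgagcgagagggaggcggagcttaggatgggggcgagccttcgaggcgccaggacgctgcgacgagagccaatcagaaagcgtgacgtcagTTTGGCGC
Hells, chr19:38930840-38930989, plus strand: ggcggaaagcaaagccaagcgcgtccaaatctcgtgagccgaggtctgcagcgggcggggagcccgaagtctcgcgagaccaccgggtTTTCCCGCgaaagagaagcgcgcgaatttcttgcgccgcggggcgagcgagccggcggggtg
Cdc6, chr11:98908001-98908150, plus strand: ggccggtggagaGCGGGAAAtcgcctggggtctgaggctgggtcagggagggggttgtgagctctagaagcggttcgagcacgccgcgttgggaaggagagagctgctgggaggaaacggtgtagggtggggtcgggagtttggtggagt

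Genes of the mature enterocyte were higher than in CDK8iIEC-KO organoids. Of 27 genes of the brush border and its peptidases, 17 rose and 0 fell (median 0.77), with 25 higher without overlap, and the summed level was 14260 to 15020 CPM against 9400 to 10330 CPM. Alpi, the intestinal alkaline phosphatase, had 1656, 1362 and 1649 CPM against 650.5, 635 and 672 CPM (1.25 ± 0.08, edgeR adjusted p = 5.3e-11). Ace, a dipeptidyl carboxypeptidase, had 167, 182 and 143 CPM against 57.4, 56.5 and 63.3 CPM (1.47). Akp3, a second alkaline phosphatase, had 131, 85.8 and 239 CPM against 48.9, 47.0 and 53 CPM and Tmigd1 10.4, 21.7 and 15.5 CPM against 5.20, 4.67 and 4.74 CPM, and their double-knockout libraries spread widely. The control-line differences were -1.82 for Alpi, 0.44 for Ace, -4.14 for Akp3 and -5.35 for Tmigd1, and 0 of the 27 genes were called higher there. The level of Alpi also differed between the controls, with 1327 ± 172 CPM in VillinCreERT2 organoids, between the means of the groups compared, and 374 ± 8.61 CPM in C57BL/6 organoids, below both (SD, n = 3 each). CDK8iIEC-KO organoids were low themselves, with 14 of the 27 brush border genes called lower than in VillinCreERT2 organoids and 0 higher. Over all genes that contrast gave 656 of 15125 lower. Over Cdk8 fl/fl/Cdk19-/- organoids the double knockout had 5 of the 27 higher and 2 lower.

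Of 24 genes of lipid uptake and chylomicrons, 14 rose and 0 fell (median 0.66). Apoa4, an apolipoprotein of chylomicrons, had 2190, 2211 and 2033 CPM against 996, 957 and 1088 CPM (1.08 ± 0.09), and Apob, their structural protein, had 1761, 1551 and 1570 CPM against 668, 856 and 629 CPM (1.18). Cd36, a fatty acid translocase, had 63.0, 72.8 and 59.0 CPM against 19.9, 20.2 and 25.3 CPM (1.58), and Apoa1 rose by 1.09. Of these, Cd36 alone was called in the same direction between the control lines (0.87). Retinoid and alcohol metabolism went the same way, with 9 of 18 higher (3 when tested against the fold cutoff itself) and 1 lower. Rbp2, the retinol carrier of enterocytes, had 1208, 1214 and 1238 CPM against 578, 533 and 631 CPM, the dehydrogenase gene Rdh7 142, 134 and 129 CPM against 50.1, 49.0 and 58.7 CPM, and Bco1, which cleaves beta-carotene, rose by 1.86. Of sugar uptake and metabolism, 5 of 18 rose (8 with the control-line difference subtracted) and 0 fell, among them the trehalase gene Treh (1.15) and Slc5a4a (1.71, control lines 1.56). In CDK8iIEC-KO organoids 12 of the 18 were called lower than in VillinCreERT2 organoids and 0 higher. Over Cdk8 fl/fl/Cdk19-/- organoids the double knockout had 0 of the 18 sugar genes higher and 4 lower, against 9 and 0 of the 24 lipid genes. Of amino acid and peptide transporters, 5 of 20 rose and 3 fell (12 and 4 with the control-line difference subtracted). Slc15a1, the main peptide transporter of the brush border, had 31.8, 37.4 and 30.4 CPM against 11.5, 11.4 and 14.7 CPM (1.41), opposite to its paralog Slc15a2, and the cystine transporter subunit gene Slc7a9 rose by 1.23.

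Of 26 cytochrome P450 genes, 14 rose and 2 fell (median 0.66), and 11 rises and 1 fall were left without those called in the same direction between the control lines. Cyp4b1 had 109.5, 110.5 and 84.2 CPM against 30.8, 30.2 and 37.3 CPM (1.63, control lines -0.07) and Cyp2d10, a paralog of Cyp2d34, 8.17, 4.51 and 6.92 CPM against 2.49, 1.6 and 2.00 CPM (1.69). Cyp4a10, a fatty acid hydroxylase that PPAR-alpha induces, rose by 2.79 with a control-line difference of 3.16, which rests on fewer than 3 counts on average in VillinCreERT2 organoids. Of 26 genes of fatty acid oxidation and ketogenesis, 9 rose and 1 fell. Acadl, of mitochondrial fatty acid oxidation, rose by 0.89, and the coactivator gene Ppargc1a by 0.72 (control lines 0.35). Enterocyte transcription factors were split, with 5 of 19 higher and 2 lower. Maf had 50.3, 50.6 and 45.2 CPM against 12.6, 13.2 and 11.9 CPM (1.95 ± 0.09), Onecut2 rose by 0.90 and Pdx1, a factor of the duodenum, by 1.57 (control lines -4.52). Cdx1, a caudal-type homeobox factor, fell (-0.80, control lines -0.59), a call that ended with the control-line difference subtracted.

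Interferon-stimulated genes rose as a group. Of 27 tested of 40 listed, 18 rose and 1 fell, with a median of 1.03 and a control-line median of -0.01, and 17 of the rises were without a control-line call in the same direction. The summed level was 573.6 to 604.8 CPM against 361.5 to 387.6 CPM. Oasl2, an antiviral 2'-5'-oligoadenylate synthetase-like gene, had 10.9, 19.9 and 14.3 CPM against 3.30, 3.16 and 5.01 CPM (1.97 ± 0.19, edgeR adjusted p = 3.86e-08). Ifi27 had 6.95, 7.85 and 7.70 CPM against 2.04, 1.6 and 3.02 CPM (1.76, control lines 0.98), and Ifit1bl1, of a family that binds foreign RNA, had 11.9, 10.1 and 10.0 CPM against 3.93, 5.13 and 4.74 CPM (1.21). Oas1g had 9.05, 6.60 and 9.13 CPM against 1.49, 1.51 and 1.81 CPM (2.36), but it is a near-identical copy of Oas1a and had 0 counts in the 3 C57BL/6 libraries. The groups did not overlap in any of these.

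Interferon induces such genes through STAT and IRF complexes that read repeats of GAAA, and the promoters (as defined above) were searched on both strands for GAAANNGAAA. These letters stood in 15 of 22 promoters found (68.2%), in 11 of 14 genes that rose and in 4 of 8 others, against 3.49% of 27025 promoters and 2.84% of those of 10285 tested genes. Genes that rose and those that did not both held the letters. Oasl2, Irf7 and Irf9 rose without holding them. The 150 bases before the start are shown for the 4 members with the largest rises among those that averaged at least 50 counts in a group and whose matches all lie there. The matches are in capitals, and their closeness to the start was set by this choice. In Oas1g and Oas1a a pair of matches overlap.
Oas1g, chr5:120887614-120887763, minus strand: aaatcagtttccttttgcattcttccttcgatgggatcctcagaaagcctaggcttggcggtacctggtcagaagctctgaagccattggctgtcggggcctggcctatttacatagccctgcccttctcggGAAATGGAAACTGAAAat
Ifit1bl1, chr19:34601969-34602118, minus strand: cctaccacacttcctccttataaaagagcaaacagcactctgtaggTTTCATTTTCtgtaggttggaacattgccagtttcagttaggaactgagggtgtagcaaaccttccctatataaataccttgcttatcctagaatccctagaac
Ifit1, chr19:34640739-34640888, plus strand: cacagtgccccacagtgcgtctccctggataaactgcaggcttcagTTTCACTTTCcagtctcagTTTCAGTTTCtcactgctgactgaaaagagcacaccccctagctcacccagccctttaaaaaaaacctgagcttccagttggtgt
Oas1a, chr5:120907526-120907675, minus strand: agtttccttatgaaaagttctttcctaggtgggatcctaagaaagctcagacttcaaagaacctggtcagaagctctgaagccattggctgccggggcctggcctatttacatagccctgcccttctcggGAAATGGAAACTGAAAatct

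The log2 fold changes of Ifit1 and Oas1a were 1.20 and 1.18. Of 21 genes of MHC class I and its processing, 10 rose and 1 fell (median 0.58), and 6 rises were left without those called in the same direction between the control lines. H2-Q1 had 72.7, 94.2 and 85.3 CPM against 22.9, 22.7 and 28.8 CPM (1.76, control lines 0.74) and H2-Q4 rose by 1.31, both of a family of close copies. Tap2, a subunit of the peptide transporter of the endoplasmic reticulum, had 11.8, 14.0 and 10.7 CPM against 4.21, 3.85 and 5.06 CPM (control lines 1.12), and Psmb8, a subunit of the immunoproteasome, had 6.12, 5.02 and 5.98 CPM against 2.85, 2.24 and 1.53 CPM. Of epithelial chemokines and Reg lectins, 5 of 17 rose and 2 fell. Reg3g, a bactericidal lectin, had 129, 116 and 129.7 CPM against 36.5, 36.4 and 39.4 CPM (1.74, control lines 0.66), Reg3a rose by 1.08 (control lines 1.29), and Reg1 (1.75) and the chemokine gene Ccl20 (1.48) rose against control-line differences of -3.23 and -2.49. Markers of immune cells were at or near 0: 2 of 15 passed the filter on low counts, 0 passed the test, and the list summed to 4.193 to 5.315 CPM against 3.618 to 4.736 CPM.

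Some lists moved with the control-line difference as well. Of 22 genes of serine and folate synthesis and other ATF4 targets, 13 fell and 1 rose (median -0.75), but the control-line median was -0.69 and 4 falls were left without those called in the same direction there. With the control-line difference subtracted 6 of the list were higher and 4 lower. Psat1, an enzyme of serine synthesis, had 65.4, 68.0 and 65.6 CPM against 164, 170.2 and 168 CPM (-1.33, control lines -0.74). Slc7a11, the cystine-glutamate exchanger, had 3.86, 5.98 and 4.82 CPM against 15.5, 16.5 and 15.0 CPM (-1.68, control lines -2.48), and Slc7a5 (-1.54, control lines -0.81) and Chac1 (-1.48, control lines -1.87) fell too. The letters TGATGNAA, part of the element that ATF4 binds, stood in 5 of 19 promoters of the list (26.3%), against 4.06% of all and 2.18% of tested genes, in 3 of 11 genes that fell and 2 of 8 others. Of 19 NRF2 targets 5 fell and 0 rose, and 3 falls were left in the same way, while subtracting the control-line difference gave 7 higher and 0 lower. Gpx2 (-0.74), Gstm1 (-0.86) and Cbr3 (-1.17) had control-line differences of -0.46, -0.50 and -0.78. Of 13 mitochondrially encoded genes 7 rose and 0 fell, with a control-line median of 0.86 against 0.64 in the comparison, and 1 rise was left. mt-Nd4 had 4045, 3758 and 3776 CPM against 1968, 2279 and 2198 CPM (0.85, control lines 0.86), whereas the remaining one, mt-Nd3, had 14.5, 10.4 and 11.7 CPM against 0.588, 0.458 and 0.836 CPM with a control-line difference of -0.90. The part of style or line in these differences was not tested.

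Most changes in Mediator genes were under the fold cutoff. Of 6 tested genes of the kinase module 0 passed, with a range from -0.52 to 0.05, too few genes to set beside the share over all genes. Of 25 core Mediator genes 13 were lower without overlap and 0 higher, against 61.2% of all genes without overlap in either direction. Past both cutoffs, 2 of the 25 fell (8%, against 8.65% of all genes) and 0 rose. The core genes that fell were Med14, the backbone subunit, with 68.3, 64.6 and 72.8 CPM against 110.1, 129 and 109.8 CPM (-0.76, control lines -0.61), and Med22, with 31.7, 29.5 and 32.6 CPM against 50.5, 49.0 and 43.0 CPM (-0.60, control lines -0.27), whose call was lost with 1 library left out in 3 of 6 cases. Of 24 SWI/SNF subunits, which remodel chromatin, 1 fell: Smarcc1 had 95.6, 86.9 and 97.5 CPM against 154, 155 and 135 CPM (-0.66, control lines -0.25). Smaller changes of the SWI/SNF list went mostly down, with 21 of 24 values negative and a median of -0.25 (control lines 0.07). In 19 of the 24 the double knockout was lower without overlap, in 0 higher, and the summed level was 1508 to 1531 CPM against 1764 to 1896 CPM.

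Markers of intestinal region did not move to one end. Of 13 proximal genes 7 rose and 1 fell, of 17 distal genes 4 rose and 1 fell, and of 11 colon genes 5 rose and 1 fell. Slc10a2, the ileal bile acid transporter, had 23.1, 35.4 and 27.0 CPM against 10.7, 14.3 and 17.0 CPM (1.02, edgeR adjusted p = 0.0483), with a control-line difference of -5.06, and its call was lost when any 1 of the 6 libraries was left out. Slc51b, of the basolateral bile acid exporter, had 19.1, 20.3 and 18.8 CPM against 8.09, 7.74 and 8.87 CPM (1.24), and of 10 genes of ileal bile acid handling 3 rose and 1 fell. Aqp8, a water channel of the colon, had 50.2, 51.6 and 67.5 CPM against 9.13, 8.65 and 7.57 CPM (2.74), with a control-line difference of -4.98. Higher and lower DEGs numbered 4 and 0 of 30 genes of sterol and fatty acid synthesis, 4 and 0 of 26 of glycolysis and hypoxia, 1 and 1 of 35 of ER folding, 9 and 5 of 31 of conjugation, 1 and 4 of 20 p53 targets, 2 and 2 of 17 of BMP and TGF-beta response, 0 and 3 of 17 of immediate early genes, 5 and 2 of 13 regenerative genes, 1 and 2 of 12 Hox genes and 2 and 1 of 3 of MHC class II. All 4 falls among p53 targets were also called lower between the control lines, and with the control-line difference subtracted 10 p53 targets were higher and 0 lower. No general epithelial marker passed (0 of 10). Of mesenchyme markers 3 of 15 passed the filter and 1 fell, with a list sum of 4.966 to 5.644 CPM against 7.324 to 8.358 CPM (Vim, log2 fold change -0.71), and of pancreas markers 3 of 12 passed it and 1 rose.

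**Figure D4:**
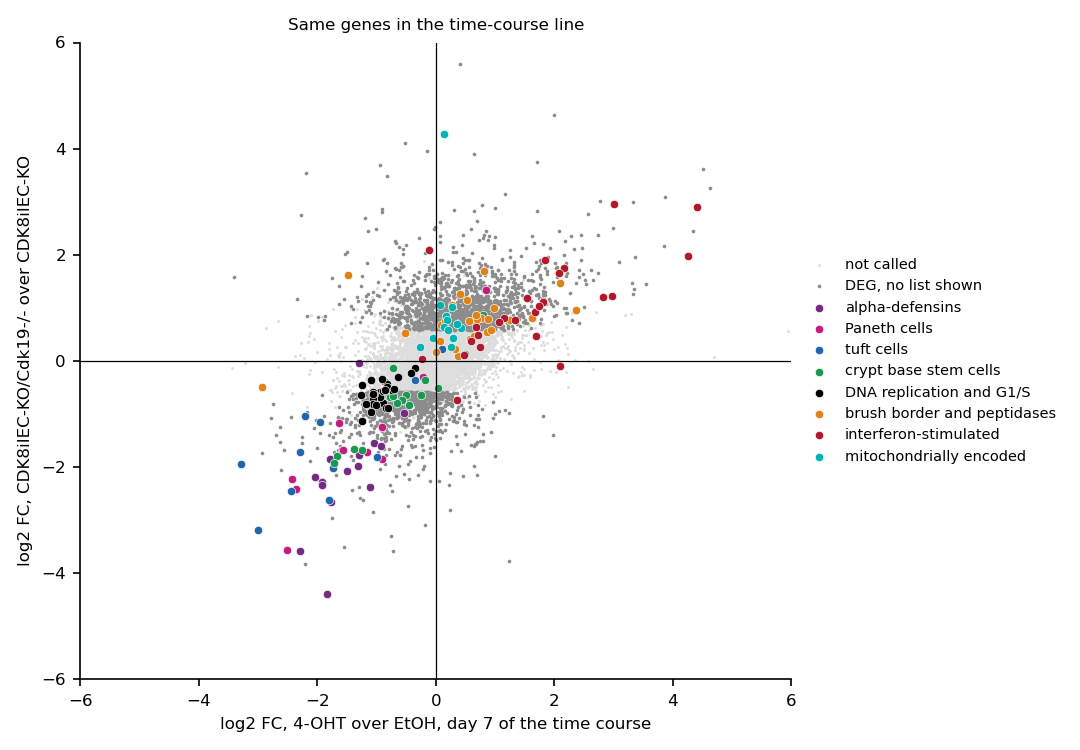
Log2 fold change of the double knockout over CDK8iIEC-KO organoids (vertical axis) against that of 4-OHT over EtOH at day 7 in a Cdk19-null line (horizontal axis), 1 point per gene tested in both tables (14403 genes, 4 beyond the axes), with 8 lists in colour. Most genes of the alpha-defensin, Paneth, tuft and G1/S lists lie in the lower left and most interferon-stimulated genes in the upper right, while mitochondrially encoded genes lie near 0 on the horizontal axis.

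A separate table holds another route to the same genotype in libraries that the comparison does not use. There the line VillinCreERT2; Cdk8 fl/fl; Cdk19 ko/ko received EtOH or 4-OHT, so CDK8 was removed where CDK19 was already absent, within 1 line, with 3 libraries each at day 7. Exposure to 4-OHT and activation of the Cre differ there together with CDK8, whereas both groups of the comparison share them. Their part was not tested. With 4-OHT, 1391 of 15447 genes (9.00%) rose there and 1429 (9.25%) fell. The tables were fitted separately, and no test was made between them. Of 1617 DEGs higher in the double knockout and tested there, 607 (37.5%) rose and 39 (2.41%) fell. Of 1212 lower DEGs, 566 (46.7%) fell and 15 (1.24%) rose. In turn, these made up 47.8% of the 1269 rises and 41.6% of the 1362 falls of the time course that were tested here.

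Several lists described above went the same way in that table and others did not. Of alpha-defensins 15 of 16 fell and of Paneth cell genes 10 of 12, with Lyz1 at 1131 ± 85.9 CPM after 4-OHT against 3494 ± 342 CPM after EtOH (log2 -1.63). Tuft cell genes fell in 9 of 12, with Pou2f3 at -1.81, and stem cell genes in 10 of 18, with Olfm4 at -1.67 and Ascl2 at -1.72. Lgr5, which did not pass between the double knockout and CDK8iIEC-KO organoids, fell there (-0.73). Cell cycle genes fell in larger number, 32 of 34 of G1/S and 30 of 32 of mitosis, with a median of -0.95 and -0.80. Interferon-stimulated genes rose in 22 of 26 (median 1.69), with Oasl2 at 4.27 and Sp100 at 4.52. Brush border genes rose in 12 of 27 and fell in 2, one of them Akp3 (-1.49), and Alpi, Apoa1 and Apoa4 did not pass (0.42, 0.20 and 0.13). Of enteroendocrine transcription factors 1 of 11 fell, and Neurog3 and Insm1 were at 0.00 and 0.05. Of the serine and ATF4 list 11 of 22 fell, with Psat1 at -1.61, while of mitochondrially encoded genes 0 of 13 passed there. Of 18 genes of sugar uptake 2 rose and 5 fell there, against 5 and 0 of 18 in the comparison. Of 17 of retinoid and alcohol metabolism 2 rose and 3 fell, against 9 and 1 of 18, and of 21 of EGF family and MAPK feedback 1 rose and 0 fell, against 0 and 4 of 22. Slc15a2 (0.21), at an extreme of the comparison, did not pass in that line, in which its fold concerns the loss of CDK8, together with 4-OHT and active Cre, rather than of CDK19.

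**Figure D5:**
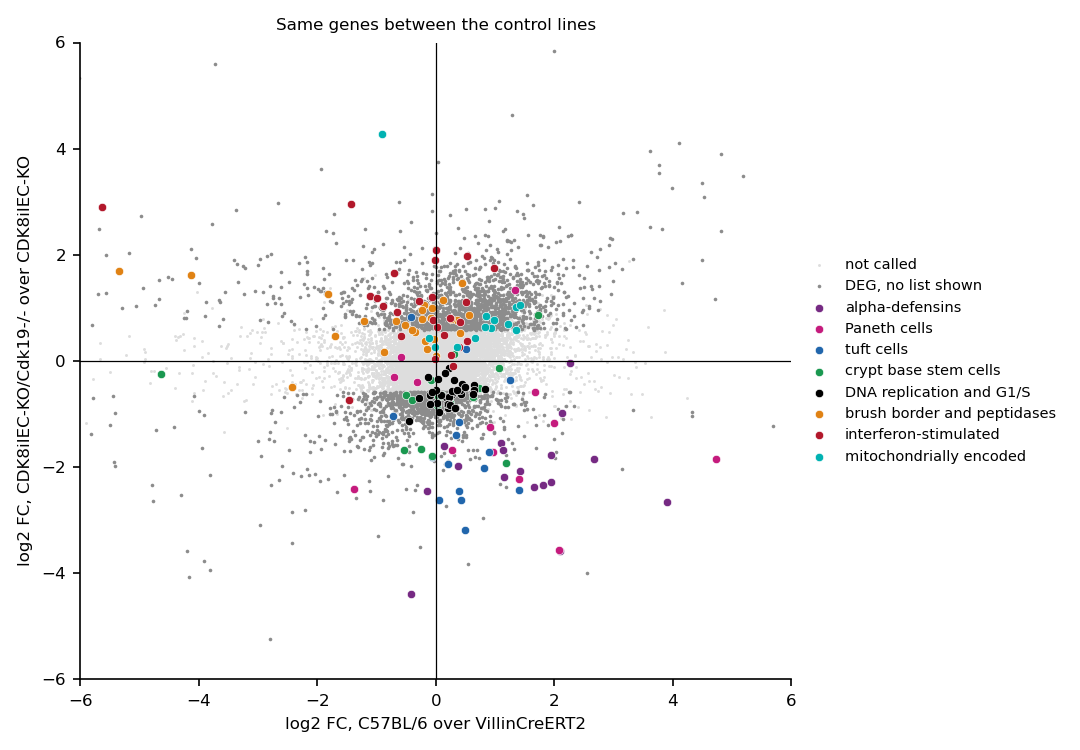
Log2 fold change of the double knockout over CDK8iIEC-KO organoids (vertical axis) against that of C57BL/6 over VillinCreERT2 organoids (horizontal axis), 1 point per gene tested (15125 genes, 69 beyond the axes), with 8 lists in colour. Most alpha-defensins lie in the lower right, and most mitochondrially encoded genes in the upper right.

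The control lines gave 3986 DEGs, 26.4% of the genes tested, which is more than the 20.4% of the comparison itself. Neither set of libraries is in the other, but both differences cross the styles of column name. The lists separated in this respect, as the plot against the control lines shows. Alpha-defensins, Paneth and tuft cell genes, G1/S genes, brush border genes and interferon-stimulated genes had a control-line median of the opposite sign or near 0 (1.67, 0.97, 0.40, 0.22, -0.20 and -0.01). The ATF4, NRF2 and mitochondrially encoded lists had one of the same sign and like size (-0.69, -0.58 and 0.86). By biotype, 1153 protein-coding genes rose and 1031 fell, and 25.6% of these DEGs were called in the same direction between the control lines. Of 1516 pseudogenes 187 rose and 232 fell, and 43.9% of these had a call of the same direction there. Of 1304 genes of other classes 420 rose and 46 fell, and 54.3% of these were called in the same direction between the control lines, as were 11 of the 14 non-coding mitochondrial genes that rose.

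Whether the loss of CDK19 had another effect with CDK8 present was tested as the difference of the comparison from Cdk8 fl/fl/Cdk19-/- over C57BL/6 organoids, within the same fit. Of 15125 genes, 2969 (19.6%) passed, and 1974 of these were DEGs of the comparison in the same direction. Cdk8 fl/fl/Cdk19-/- over C57BL/6 gave 794 DEGs. These 4 groups are separate lines, and the comparison crosses the styles while Cdk8 fl/fl/Cdk19-/- over C57BL/6 does not. The double knockout and CDK8iIEC-KO carry VillinCreERT2, which 4-OHT activates, and the genotype labels of the other 2 groups name no Cre. CDK8, active Cre, line and style therefore cannot be told apart in the difference. Pou2f3 (-2.19 ± 0.34), Ang4 (-1.55 ± 0.11), Mmp7 (-1.25 ± 0.11), Olfm4 (-1.14 ± 0.23), Ascl2 (-1.41 ± 0.22) and Msi1 (-1.59 ± 0.23) had negative differences past both cutoffs. For Atoh1 (-0.52, edgeR adjusted p = 0.00238) and Lyz1 (-0.41, edgeR adjusted p = 0.000296) the difference was under the fold cutoff. With CDK8 present, Lyz1 averaged 1440 ± 32.1 CPM without Cdk19 against 2429 ± 216 CPM in C57BL/6 (log2 -0.75), and of 13 Paneth cell genes 3 fell and 1 rose. In that contrast 2.86% of genes were called higher and 2.39% lower. Of 17 alpha-defensins 1 fell and 3 rose there, and of tuft cell genes 0 of 15, of G1/S genes 0 of 34 and of mitosis genes 0 of 32 were called. Of 20 stem cell genes 3 fell, among them Olfm4 (-0.66) and Lgr5 (-0.98), and 2 rose. Of 16 enteroendocrine transcription factors 5 fell and 0 rose, and of 18 hormones and granins 6 rose and 1 fell. Of 27 interferon-stimulated genes 4 rose and 0 fell. All 5 sex-linked genes were called in that contrast, 4 higher and 1 lower, against 0 in the comparison, so sex-linked expression also differed between the groups that enter the difference, and its part was not tested.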

How the data were processed

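Organoid RNA was measured by RNA-Seq. The authors deposited unnormalized read counts for each gene, and the submitters' processing notes name STAR 2.5.2, featureCounts of Subread 1.6.3 and mm10. The annotation, the strandedness and the treatment of reads that map to several genes are not given in the sources used here, so overlapping, antisense and near-identical genes are uncertain. Of 54752 gene identifiers, 53861 occur in GENCODE vM21, from which positions on GRCm38 were taken, and 27 symbols that a spreadsheet had turned into dates were restored through it. The 15 libraries of the day 7 table (5 groups of 3, grouped by their labels) were fitted together in edgeR 4.0.16 (R 4.3.3) with filterByExpr, TMM factors and robust quasi-likelihood F tests, and the 24 libraries of the time course separately. The time course libraries held 19879016 to 20771513 counts at day 7. The cutoffs for DEGs were a fold change of more than 1.5 and an adjusted p (Benjamini-Hochberg) below 0.05. CPM use TMM-scaled library sizes, and a group at or under 3 counts per library gave a bound in place of a fold. Counting error at these depths is smaller than the differences between replicates, which exceeded sampling noise in every pair (chi-square per degree of freedom 3.62 to 6.11).

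The members, the 49 gene lists and the alternatives were chosen with earlier results of these data known. Lists are described by counts and medians, without a test. Named genes were Cdk8, Cdk19, the 12 largest rises and 12 largest falls among DEGs with a mean of 50 counts or more in one of the groups, up to 4 such DEGs per list and direction, of which not all are named, and 10 genes, all but Lgr5 named in the text of the study. Promoters (GRCm38.p6) came from RefSeq, without chromosome 18. Scripts were tested on simulated data. The alternatives were other filters, normalizations and tests (DESeq2 1.42.0, limma 3.58.1), a block for the replicate number, thinned counts, each library left out, and the control-line difference subtracted. Leaving out the DEGs called between the control lines was added after the data were seen. Replicate numbers did not pair the libraries (correlations of deviations 0.10, -0.074 and -0.0032). Tables of intestinal epithelial cells and of other organoid treatments were not used here. Some results that the rule would name are not reported here.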

Additional observations from a re-analysis of the deposited data

Results flagged for a closer look

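The change without Cdk19 was different with and without CDK8, tested as an interaction within the fit, in 2969 genes. That is 19.6% of the genes tested. Values follow for 26 of 35 genes fixed by rule (the targeted genes, the largest rises and falls, the genes picked from the text of the study, and Lgr5), those past the cutoffs. Most of the 35 were chosen by a fold change that is itself a term of the difference, so their number is no result. Negative values mean a lower change in the organoids that lack CDK8. Among Paneth and tuft cell genes the log2 difference was -5.17 for Defa34, -4.05 for Pla2g2a, -2.59 for Ccl6, -1.55 for Ang4 and -1.25 for Mmp7, and -2.63 for Dclk1, -2.19 for Pou2f3 and -1.99 for Spib. Among stem cell and Wnt genes it was -1.59 for Msi1, -1.41 for Ascl2, -1.14 for Olfm4 and -0.62 for Wnt3. Lgr5 had a positive difference of 0.84: it fell with CDK8 present and did not pass in its absence. Of the other genes that fell, Cyp1a1 had -4.66, Mrto4-ps1 -3.19 and Gm8210 -2.74. Of those that rose, Btnl7-ps had 3.31, Chrna4 4.02, Gm5853 4.03, Cfap61 4.14, mt-Nd3 4.70 and Cyp2d34 5.54. The values of Slc15a2 (-6.79), Gm10175 (-3.60), Nkx6-3 (6.30) and Gm42031 (16.88) rest on groups that averaged about 3 counts per library or fewer and depend on the prior count, and that of Cyp1a1 rests on C57BL/6 libraries of at most 8 counts. The difference combines 4 lines, both styles of column name and groups with and without VillinCreERT2, and sex-linked genes differed between Cdk8 fl/fl/Cdk19-/- and C57BL/6, and their part in it was not tested.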

How the results depend on the processing

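The 3083 DEGs became 2847 with DESeq2, 3103 with limma-voom, 3088 with upper quartile normalization and 2887 to 3213 with 1 library left out. The replicate number as a block gave 3085, 2817 in the time course and 2975 in the difference, and it changed the call of none of 123 genes named here. Tested against the fold cutoff itself (glmTreat), 767 were higher and 486 lower, 1253 in all, and in the time course 558, 382 and 940. In that test 1 of 32 mitosis genes fell in place of 7, 10 of 34 G1/S genes in place of 19 and 3 of 15 secretory transcription factors in place of 10. Falls went from 13 to 6 among stem cell genes, from 13 to 8 in the Wnt list, from 7 to 4 among enteroendocrine transcription factors and from 5 to 2 among hormones and goblet cell genes. Rises went from 9 to 3 in retinoid and alcohol metabolism and in fatty acid oxidation, from 14 to 8 in lipid uptake, from 5 to 0 among regenerative genes, from 7 to 3 among mitochondrially encoded genes and from 7 to 4 among proximal genes. Of the named genes 17 lost their call there, Atoh1, Gcg, Chga, Guca2a, Notch1, Ereg and Foxm1 among them, and 0 turned sign. With the control-line difference subtracted, 2181 genes were lower in place of 1309, 24 mitosis genes fell, and falls in the ATF4, NRF2 and p53 lists went from 13, 5 and 4 to 4, 0 and 0 and rises from 1, 0 and 1 to 6, 7 and 10. Rises went from 0 to 7 among hormones and granins and immediate early genes and from 0 to 5 in the EGF list, from 1 to 5 among goblet cell genes, from 3 to 8 in ileal bile acid handling, from 5 to 12 among amino acid transporters from 4 to 9 among distal genes, from 5 to 8 in sugar uptake and among regenerative genes and from 2 to 4 in the BMP list, and falls from 7 to 11 among enteroendocrine transcription factors and from 2 to 7 among Hox genes. Without DEGs called in the same direction between the control lines, 1071 were higher. The subtraction turned the sign of 16 of 123 genes: Cdk8 (0.13), Cyp1a1 (0.61), Gm42031 (-3.94), Gm5853 (-0.00409), Chrna4 (-1.43), Ghrl (0.28), Gcg (1.51), Guca2a (0.69), Gkn3 (-0.86), Sfrp5 (3.44), Ereg (9.81), Cyp4a10 (-0.37), Slc7a11 (0.80), Chac1 (0.39), Reg3a (-0.21) and mt-Nd4 (-0.0106). The values of Gm42031, Chrna4, Sfrp5, Ereg and Cyp4a10 among these rest on a control group that averaged fewer than 3 counts per library, so they depend on the prior count and are no measure of size. It ended the call of a further 19 (Gm10175, Gm10800, Mrto4-ps1, Pnliprp2, Spink4, Notch1, Areg, Ect2, Foxm1, Ppargc1a, Slc5a4a, Tap2, Cdx1, Gpx2, Cbr3, Gstm1, Med14, Med22 and Smarcc1), added 1, that of Lgr5 (-1.20), and left 87 on their side, and the cause was not tested. With 1 library left out, 728 of 738 calls of these genes kept their side and direction, and the exceptions were Slc10a2 with each library, Med22 with 3 and Chga with 1. Without replicate 2 of the double knockout distal genes that rose went from 4 to 2 and BMP list falls from 2 to 4, without replicate 1 Hox rises went from 1 to 3, and without replicate 3 regenerative falls went from 2 to 1 and hormone falls from 5 to 3. Of the other list counts, those of 3 genes or more moved by at most 1.5 times with 1 library left out. The filter of 10 counts in every library kept few tuft cell genes, 3 of which fell in place of 12, and left 9 alpha-defensin falls in place of 16, 11 interferon-stimulated rises in place of 18 and 3 colon rises in place of 5.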
